A study of Homo sapiens with 8 samples.

Results

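The aminoacyl-tRNA synthetases and the proteins that hold some of them together were followed in cultured cells exposed to sodium benzoate (SB). The members were the genes whose symbol is 1 letter followed by ARS or ARS2, together with EPRS, FARSA, FARSB, TARSL2, AIMP1, AIMP2 and EEF1E1. This gave 41 of the 14526 genes in the expression table, of which 21 encode cytosolic enzymes, 17 encode mitochondrial enzymes (symbols ending in ARS2) and 3 encode scaffold proteins. The study asked how SB, a food preservative and a precursor of histone lysine benzoylation, alters gene expression. Total RNA was sequenced from 4 control replicates and from 4 replicates kept in medium containing 10 mM SB for 24 h before harvest. Both groups carry the cell line label HepG2, a human liver carcinoma line, and were grown in the same serum-containing medium. No genotype, vehicle or passage is given. The study's methods call the 4 replicates of a condition biological without saying how the cultures were set apart, and p-values measure the spread between these samples.

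An aminoacyl-tRNA synthetase joins 1 amino acid to its transfer RNA, the step that makes the genetic code readable by ribosomes. Cytosolic and mitochondrial ribosomes draw on largely separate sets of these enzymes, both encoded in the nucleus. Several cytosolic enzymes sit in the multisynthetase complex, held by the non-catalytic proteins AIMP1, AIMP2 and EEF1E1. When amino acids are scarce or the endoplasmic reticulum is stressed, the transcription factor ATF4 is known to raise the transcription of many cytosolic synthetase genes together with genes of amino acid synthesis and transport. It does so through a composite C/EBP-ATF element whose core reads TGATGNAA.

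That core was searched on both strands of the RefSeq promoters (GRCh38.p14, 250 bases before to 50 bases after the start), which matched 33 of the 41 members. It was present in 6 of 16 cytosolic promoters (37.5%), in 1 of 14 mitochondrial promoters (7.14%) and in 0 of 3 scaffold promoters, against 182 of 11341 promoters of the table (1.60%). The form TGATGCAA, which is contained in TGATGNAA, was found in the same 6 cytosolic promoters and in 56 of all promoters (0.494%). The matches are printed below because the expression of these 6 genes is compared with that of the other cytosolic members further on. Each window is 30 bases of GRCh38.p14 written 5′ to 3′ on the strand that carries the motif, with the 8 motif bases in capitals.
CARS: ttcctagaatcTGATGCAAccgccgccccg
MARS: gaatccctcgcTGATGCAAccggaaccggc
AARS: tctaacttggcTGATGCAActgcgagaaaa
NARS: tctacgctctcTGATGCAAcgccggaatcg
TARS: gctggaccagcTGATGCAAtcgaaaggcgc
IARS: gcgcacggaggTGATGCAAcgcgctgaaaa
YARS2: atccacactgcTGATGGAAaaattaagttt

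The windows lie at chr11:3057407-3057436 on the plus strand (CARS), chr12:57488053-57488082 on the minus strand (MARS), chr16:70289675-70289704 on the plus strand (AARS) and chr18:57621804-57621833 on the minus strand (NARS). Those of TARS (chr5:33440956-33440985, minus strand), IARS (chr9:92293692-92293721, plus strand) and YARS2 (chr12:32756076-32756105, minus strand) follow the same format. Counted from 0 at the start site, the leftmost motif base in the direction of transcription lay at -2 in CARS, -4 in MARS, -13 in IARS, 2 in TARS and 14 in NARS, so 5 of the 6 cytosolic matches began within 14 bases of the start. In AARS it lay at -187 and in YARS2 at -197. These distances are counted from the RefSeq start and depend on it. In GENCODE 44 the AARS gene begins at chr16:70289707, just before its window, and the MARS gene at chr12:57475445, far before its window. The genes CARS (chr11:3057613), IARS (chr9:92293854), NARS (chr18:57622213) and TARS (chr5:33440696) also begin before their windows. All 6 cytosolic matches thus lie inside the GENCODE genes, and the count within 14 bases holds for the RefSeq starts only. The YARS2 window lies before its gene. A match describes the letters in the window and was not tested as a binding site.

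The deposited values were RPKM, that is reads scaled to gene length and to library size, after TMM scaling of the libraries by the authors. Whole reads recovered from them summed to between 36990091 and 44878446 per library, and a member had between 455 (FARS2) and 42365 reads (EPRS) in a library. Of 20 hepatocyte markers, 17 had no row in the table, ALB, AFP, APOA1 and SERPINA1 among them. The table keeps only genes above 1 CPM in at least 2 samples. The 3 with a row had control means of 0.192 to 0.963 RPKM, so defining markers of the labelled cell type were absent or low. The groups were compared with limma on log2(RPKM + 1) over all genes, with Benjamini-Hochberg adjustment over all of them and an adjusted p below 0.05 as the threshold. Because of the added 1, changes of weakly expressed genes appear smaller than they were. Of all genes tested, 33.0% (4787) rose with SB and 32.6% (4740) fell, and the median log2 fold change was 0.00. When the RPKM were rescaled to the same sum in every library, the split was 7441 higher and 2432 lower, and the all-gene median of the log2 ratio rose from 0.01 to 0.19.

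Control replicate 1 stood apart from the other controls for several members. It was the far value in 9 of the 11 groups of 4 in which 1 sample was far from the rest, 5 times as the lowest and 4 times as the highest. Counts are therefore given with and without it. Without it, 5459 of the 14526 genes rose and 5511 fell.

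Cytosolic synthetase transcripts were lower in SB-treated cells almost throughout. Of 21 cytosolic members, 19 fell, 1 rose (HARS) and 1 did not pass the test (TARSL2), against a background of 32.6% of all genes lower and 33.0% higher. The log2 fold changes ran from -0.75 to 0.12 with a median of -0.36, where the median of all genes was 0.00. In 18 of the 21 the 4 SB-treated values all lay below the 4 control values, compared with 30.5% of all genes. Without control replicate 1, 19 fell and 1 rose. Under the same-sum scaling 15 fell and 1 rose, where 2432 of all 14526 genes fell and 7441 rose. Under either scaling 20 members lay below the median of all genes. The cytosolic median stood at -0.36 relative to that of all genes in the deposited scaling and at -0.31 in the other. Rescaling a library shifts all its genes nearly alike. Position relative to the median of all genes could therefore hardly change, and its agreement between scalings is no separate support. The summed level of the 21 genes was 2425, 2350.5, 2382 and 2385 RPKM in control replicates 1 to 4 and 1831, 1806, 1811 and 1825 RPKM in SB-treated replicates 1 to 4, so the SB-treated sum was 76.2% of the control sum. In RNA from many cells, a lower level in every cell and fewer cells with the transcript cannot be told apart.

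**Figure D1:**
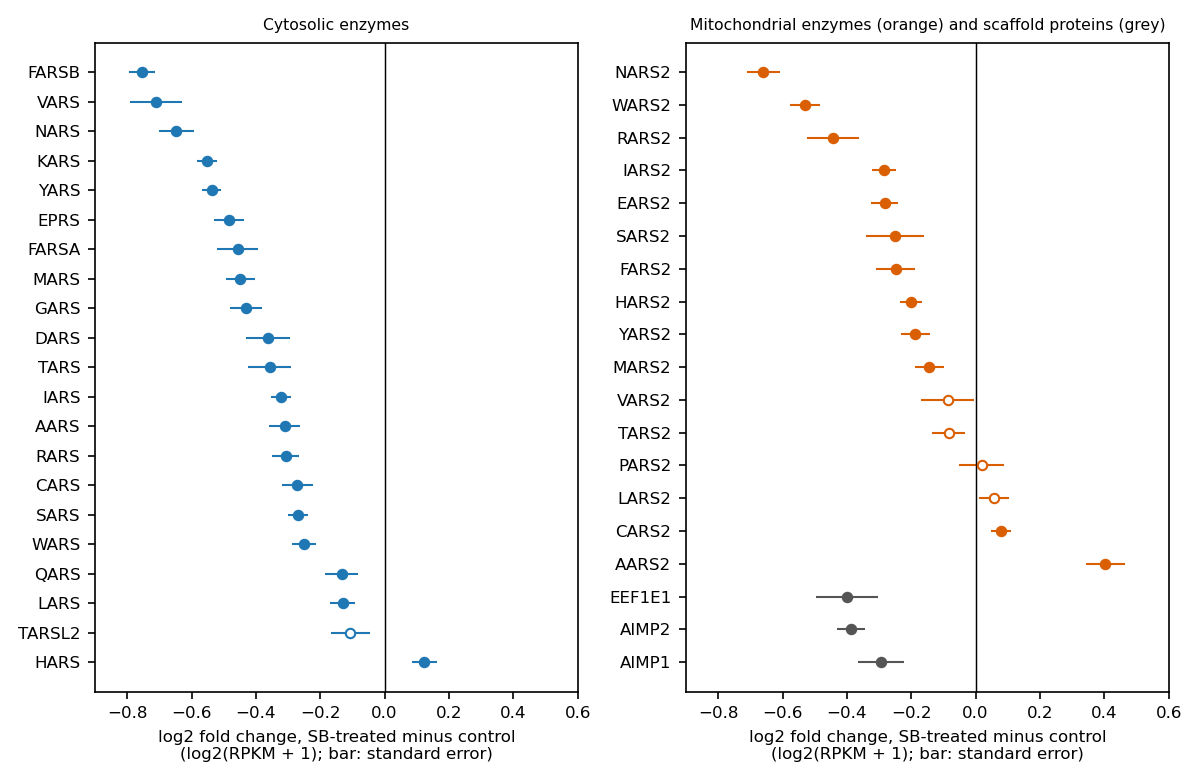
Log2 fold change (SB-treated minus control, on log2(RPKM + 1)) of 40 members, with its limma standard error as a bar. Filled points passed the adjusted p threshold of 0.05 and open points did not. Of the cytosolic enzymes 19 of 21 lie below 0 and filled, all 3 scaffold proteins do, and among the mitochondrial enzymes AARS2 stands to the right at 0.40.

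The genes for both subunits of the cytosolic phenylalanyl enzyme, a heterotetramer, were among those that fell. FARSB, the beta subunit (chr2:222566899-222656092, minus strand, GENCODE 44 on GRCh38), had 77.3, 70.7, 70.9 and 70.6 RPKM in the controls and 42.4, 42.6, 41.4 and 43.5 RPKM after SB. No SB-treated value came near a control value. Its log2 fold change was -0.75 (SE 0.040, adjusted p = 6.58e-07, limma). This was the largest fall among the 41 members on this scale, but VARS fell further with a pseudocount of 0.1 (-0.80 against -0.77), with voom (-0.81 against -0.77) and without control replicate 1 (-0.80 against -0.72). FARSA, the alpha subunit, went from 123 ± 11.5 RPKM to 88.8 ± 1.87 RPKM (SD, n = 4 each), a log2 fold change of -0.46 (SE 0.064).

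VARS, which charges valine tRNA (chr6:31777518-31795752, minus strand), had 7.68, 10.3, 10.1 and 10.2 RPKM in the controls and 5.14, 5.60, 5.45 and 5.51 RPKM after SB. All SB-treated values were lower, and control replicate 1 was the lowest control. The log2 fold change was -0.71 (SE 0.080, adjusted p = 4.34e-05, limma). The length over which the reads of VARS were counted was 26616 bases, 4.53 times the union of its exons in GENCODE 44, so its RPKM cannot be set beside that of another gene. The same held for VARS2, counted over 22404 bases (3.46 times), while no other member exceeded 1.27 times.

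NARS, the asparaginyl enzyme (chr18:57600656-57622213, minus strand) whose promoter window is printed above, had 106, 88.2, 93.5 and 91.6 RPKM in the controls. After SB it had 60.8, 59.8, 59.2 and 60.5 RPKM, 63.3% of the control mean. The groups were well apart (log2 fold change -0.65, SE 0.054, adjusted p = 6.99e-06, limma).

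YARS, the tyrosyl enzyme and the member with the highest control mean, had 253, 259, 263 and 263 RPKM in the controls and 178, 179, 178 and 178 RPKM after SB. The SB-treated replicates were nearly alike and far below every control (log2 fold change -0.54, SE 0.031, adjusted p = 9.26e-07, limma).

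KARS and GARS each encode both the cytosolic and the mitochondrial enzyme, for lysine and glycine respectively, and a gene-level value cannot separate these forms. KARS (chr16:75627474-75648643, minus strand) had 115, 110.3, 109 and 112 RPKM in the controls and 76.6, 75.8, 75.0 and 75.6 RPKM after SB. The SB-treated mean was 67.9% of the control mean, with no overlap (log2 fold change -0.55, SE 0.031, adjusted p = 9.24e-07, limma). GARS had 215, 187, 189.9 and 187 RPKM in the controls, replicate 1 being the highest, and 143, 142, 145 and 145 RPKM after SB (log2 fold change -0.43, SE 0.049, adjusted p = 4.61e-05, limma).

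EPRS, a single protein that charges both glutamate and proline tRNA, had 198, 175, 175 and 181 RPKM in the controls and 134, 126, 129 and 131 RPKM after SB. All SB-treated values were lower (log2 fold change -0.48, SE 0.046, adjusted p = 1.53e-05, limma).

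The remaining cytosolic members that fell had log2 fold changes between -0.45 and -0.13. MARS (methionine) changed by -0.45, DARS (aspartate) by -0.36, TARS (threonine) by -0.36, IARS (isoleucine) by -0.32, AARS (alanine) by -0.31 and RARS (arginine) by -0.31 in log2 units. CARS (cysteine) changed by -0.27, SARS (serine) by -0.27, WARS (tryptophan) by -0.25 and LARS (leucine) by -0.13. QARS, the glutaminyl enzyme, had the weakest of these calls, with a log2 fold change of -0.13 and an adjusted p of 0.0447 (limma). Its highest SB-treated value (73.2 RPKM) lay above the lowest control (70.9 RPKM, replicate 1), and the call was lost when any 1 of the other 7 libraries was left out. Under the same-sum scaling QARS (0.05) and LARS (0.05) were slightly above 0 and did not pass the test.

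TARSL2, a second gene for cytosolic threonyl-tRNA synthesis, had 12.9, 10.5, 11.3 and 10.3 RPKM in the controls and 10.4, 10.6, 10.2 and 10.2 RPKM after SB. The groups overlapped, and the log2 fold change of -0.11 (SE 0.061) did not pass the test (adjusted p = 0.147, limma).

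HARS, the histidyl enzyme, was the only cytosolic member that rose, and is described because of that value. It had 27.7, 30.6, 30.9 and 29.8 RPKM in the controls and 32.5, 32.1, 32.4 and 32.9 RPKM after SB. All SB-treated values were higher, with a mean at 109% of the control mean (log2 fold change 0.12, SE 0.040, adjusted p = 0.0205, limma). Without SB-treated replicate 4 the adjusted p was 0.0568, and over the other alternatives it ran from 7.21e-05 to 0.0473.

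**Figure D2:**
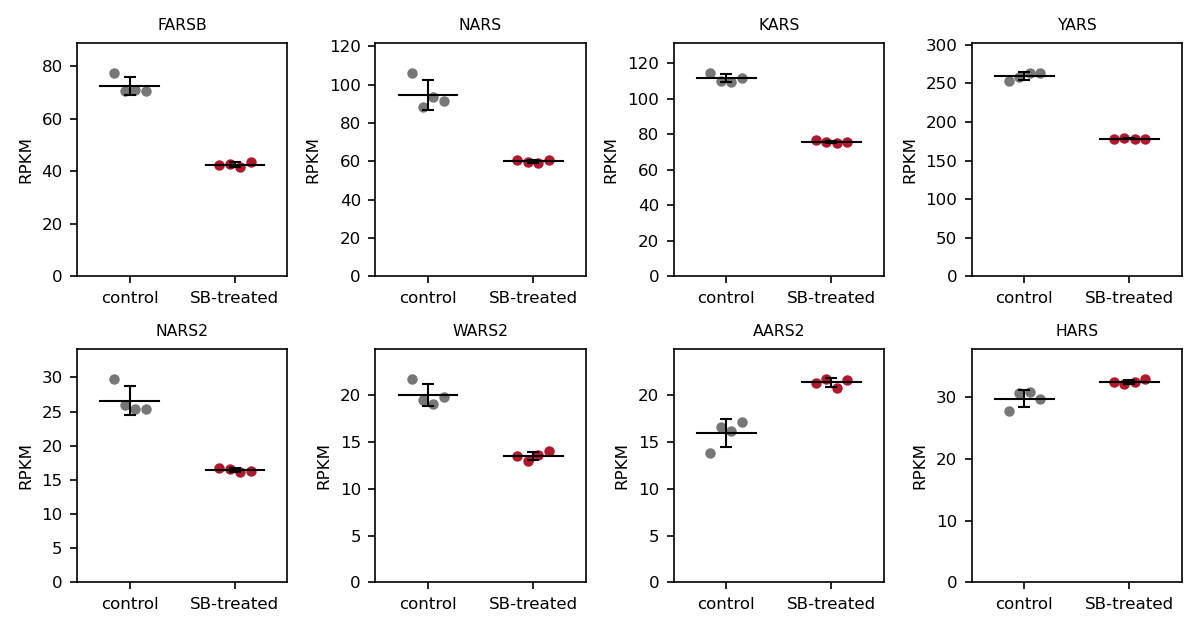
RPKM in every sample for 8 members, with control replicates in grey and SB-treated replicates in red, in the order of their numbers. The horizontal line is the mean and the bar the SD of 4 samples. Groups do not overlap in any panel, FARSB, NARS, KARS, YARS, NARS2 and WARS2 being lower and AARS2 and HARS higher after SB.

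Every gene of the multisynthetase complex fell. Its 11 members, 8 enzymes and 3 scaffold proteins, were lower with a median log2 fold change of -0.36, where 32.6% of all genes were lower. The 11 were also lower without control replicate 1, but under the same-sum scaling 7 were, where 2432 of all 14526 genes were. The call of QARS was lost when single libraries were left out, as given above. The 8 enzymes of the complex had a median of -0.34 with 8 lower, and the 13 cytosolic enzymes outside it a median of -0.36 with 11 lower and 1 higher. The difference between these lists was not tested.

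Among the scaffold proteins, AIMP2, which bridges the parts of the complex, had 27.9, 25.8, 27.5 and 25.9 RPKM in the controls and 19.1, 20.2, 20.2 and 21.3 RPKM after SB (log2 fold change -0.39, SE 0.043, adjusted p = 4.09e-05, limma). EEF1E1, also called AIMP3, had 25.3, 18.2, 18.3 and 19.5 RPKM in the controls and 15.7, 15.1, 13.7 and 15.8 RPKM after SB (log2 fold change -0.40, SE 0.096, adjusted p = 0.00475). AIMP1, which binds tRNA and from which a secreted cytokine is cut, had 28.3, 21.9, 23.4 and 22.3 RPKM in the controls and 19.9, 19.0, 19.1 and 19.1 RPKM after SB (log2 fold change -0.29, SE 0.072, adjusted p = 0.00513). In all 3 genes every SB-treated value was below every control value, and control replicate 1 was the highest. All 3 remained lower without it, but under the same-sum scaling only AIMP2 passed the test.

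Synthetases fall into 2 structural classes with unrelated catalytic domains. Class I members fell in 16 of 19 cases with a median log2 fold change of -0.28, and class II members in 14 of 19 with a median of -0.31, beside 32.6% of all genes. EPRS, which charges both glutamate and proline tRNA, was counted in class I alone. Under the same-sum scaling 10 class I and 11 class II members were lower, where 2432 of all 14526 genes were. The genes that rose were CARS2 in class I and AARS2 and HARS in class II.

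Mitochondrial synthetase transcripts also fell, less uniformly. Of 17 members, 11 fell, 2 rose (AARS2 and CARS2) and 4 did not pass the test (VARS2, TARS2, PARS2 and LARS2), with the same background of 32.6% lower and 33.0% higher. The log2 fold changes ran from -0.66 to 0.40 with a median of -0.20. In 10 of the 17 all SB-treated values lay below all controls (30.5% of all genes) and in 2 all lay above (31.0% of all genes). Without control replicate 1, 13 fell and 2 rose. Under the same-sum scaling 6 fell and 4 rose, where 2432 of all 14526 genes fell and 7441 rose. In both scalings 13 members lay below the median of all genes (median difference -0.21 and -0.17), a count that rescaling could hardly change. The summed level was 425, 430.1, 423 and 433 RPKM in control replicates 1 to 4 and 363, 357, 358 and 362 RPKM in SB-treated replicates 1 to 4, or 84.2% of the control sum.

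**Figure D3:**
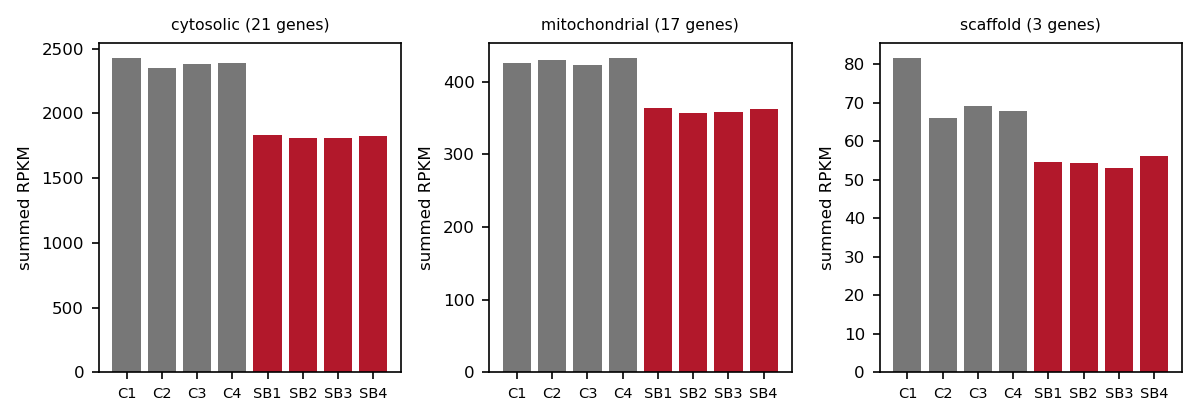
Summed RPKM of the cytosolic, mitochondrial and scaffold members in each library, with controls (C1 to C4) in grey and SB-treated replicates (SB1 to SB4) in red and axes that start at 0. The SB-treated sums are 76.2% (cytosolic), 84.2% (mitochondrial) and 76.8% (scaffold) of the control sums, and control replicate 1 is the highest scaffold bar.

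NARS2, the mitochondrial asparaginyl enzyme (chr11:78435620-78575194, minus strand), fell the most of the 17. It had 29.8, 25.9, 25.3 and 25.3 RPKM in the controls and 16.7, 16.6, 16.1 and 16.3 RPKM after SB. The groups were far apart (log2 fold change -0.66, SE 0.052, adjusted p = 5.13e-06, limma), by an amount close to that of its cytosolic counterpart NARS (-0.65).

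WARS2, for tryptophan, had 21.7, 19.5, 19.0 and 19.8 RPKM in the controls and 13.5, 13.0, 13.6 and 14.0 RPKM after SB (log2 fold change -0.53, SE 0.046, adjusted p = 8.39e-06, limma). RARS2, for arginine, had 27.8, 21.8, 21.0 and 22.2 RPKM in the controls and 17.1, 15.6, 16.7 and 17.5 RPKM after SB (log2 fold change -0.44, SE 0.080, adjusted p = 0.000885, limma). In both genes every SB-treated value was below every control, and control replicate 1 was the highest.

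IARS2, for isoleucine and the mitochondrial member with the highest control mean, had 105, 98.3, 103 and 98.5 RPKM in the controls and 83.8, 80.0, 83.1 and 84.7 RPKM after SB (log2 fold change -0.28, SE 0.037, adjusted p = 0.000103, limma). The groups did not overlap.

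AARS2, the mitochondrial alanyl enzyme (chr6:44298731-44313347, minus strand), moved the other way. It had 13.8, 16.6, 16.1 and 17.2 RPKM in the controls and 21.3, 21.7, 20.7 and 21.6 RPKM after SB. Every SB-treated value was above every control (log2 fold change 0.40, SE 0.060, adjusted p = 0.00025, limma), and the fold change was 0.34 without control replicate 1, the lowest control. It was the largest rise among the 41 members.

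CARS2, the cysteinyl enzyme, was the other mitochondrial member that rose, and is described because of that value. It had 15.5, 16.1, 15.6 and 15.5 RPKM in the controls and 16.5, 16.5, 16.6 and 16.9 RPKM after SB. The values did not overlap, but the log2 fold change was only 0.08 (SE 0.031), and its adjusted p of 0.0447 (limma) ran from 6.01e-05 to 0.118 over the alternatives, above 0.05 in 11 of 14 of them.

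The other mitochondrial members that fell had log2 fold changes of -0.28 (EARS2, glutamate), -0.25 (SARS2, serine), -0.25 (FARS2, phenylalanine), -0.20 (HARS2, histidine), -0.19 (YARS2, tyrosine) and -0.14 (MARS2, methionine). The call for SARS2 was lost when any library other than control replicate 1 was left out. VARS2 (-0.09), TARS2 (-0.08), PARS2 (0.02) and LARS2 (0.06) did not pass the test. Under the same-sum scaling MARS2, TARS2, VARS2 and TARSL2 were above 0 without passing it.

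For 17 amino acids both compartments have an enzyme of their own, so the 2 transcripts can be compared within each library, where library scaling has almost no part. The log2 ratio of the mitochondrial to the cytosolic transcript, on log2(RPKM + 1), was higher in all SB-treated replicates than in all controls for 9 amino acids (alanine, valine, proline, cysteine, tyrosine, methionine, threonine, glutamate and leucine). It was lower in all of them for 2 (histidine and tryptophan), and the groups overlapped for 6, with phenylalanine taken against FARSA alone. Separation of the groups was common in these data. Among single genes of the table, 31.0% were higher and 30.5% lower without overlap. The share among ratios of other gene pairs was not computed. Exact permutation of the sample labels, two-sided, gave p = 0.0286 for each of the 11 that did not overlap, the smallest value it can give, with no adjustment over the 17 ratios. EPRS enters both the proline and the glutamate ratio, so these are not independent.

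Alanine had the largest shift. The AARS2 to AARS log2 ratio was -3.37, -3.31, -3.39 and -3.28 in the controls and -2.62, -2.60, -2.66 and -2.60 after SB, a difference of 0.71. AARS itself fell (152, 173, 178 and 175 RPKM against 136, 136, 137 and 136 RPKM), so the 2 alanyl transcripts moved in opposite directions.

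Valine followed with a difference of 0.62 in the ratio of VARS2 to VARS. Because of the long counted lengths given above, the level of this ratio does not compare the amounts of the transcripts. Only its change between the groups is read here, and the added 1 weighs on it because both RPKM are low. That ratio was -1.19, -1.19, -1.19 and -1.15 in the controls and -0.55, -0.57, -0.52 and -0.58 after SB, and it was uniform among the controls although both transcripts were low in control replicate 1. For proline, with PARS2 over EPRS, the difference was 0.50.

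Histidine showed the reverse. The HARS2 to HARS log2 ratio was -0.97, -1.14, -1.15 and -1.14 in the controls and -1.37, -1.42, -1.43 and -1.47 after SB, a difference of -0.32. HARS2 had 13.7, 13.4, 13.3 and 13.0 RPKM in the controls and 12.0, 11.4, 11.4 and 11.2 RPKM after SB (log2 fold change -0.20, SE 0.034, adjusted p = 0.00058, limma). The genes are neighbours on opposite strands of chromosome 5, HARS at chr5:140673035-140691537 (minus) and HARS2 at chr5:140691430-140699305 (plus), and their starts lie 107 bases apart, so that the genes overlap at their 5′ ends. Whether reads were counted by strand is not given in the sources used here, so reads from the shared bases could be assigned to either. In GENCODE 44, 28 of the 41 members overlap another gene.

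Tryptophan also shifted toward the cytosolic transcript, with a difference of -0.28 in the ratio of WARS2 to WARS. WARS had 98.7, 97.0, 90.4 and 95.6 RPKM in the controls and 80.6, 80.0, 78.7 and 81.0 RPKM after SB, a smaller fall than that of WARS2.

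In the 6 ratios that overlapped between the groups, both transcripts fell. The ratio differed by -0.01 for asparagine (exact permutation p = 0.714), by 0.04 for isoleucine (exact permutation p = 0.371) and by 0.02 for serine (exact permutation p = 1). The asparagine ratio, from NARS2 and NARS, was the steadiest of these 3, lying between -1.84 and -1.73 in all 8 libraries. For arginine the difference was -0.14 and for phenylalanine, against FARSA, 0.21, each with overlapping groups (exact permutation p = 0.0857 for both). The other subunit, FARSB, fell further than FARSA (log2 fold change -0.75 against -0.46). The place of phenylalanine among the overlapping ratios may therefore depend on the subunit chosen. The ratio to FARSB was not tested.

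**Figure D4:**
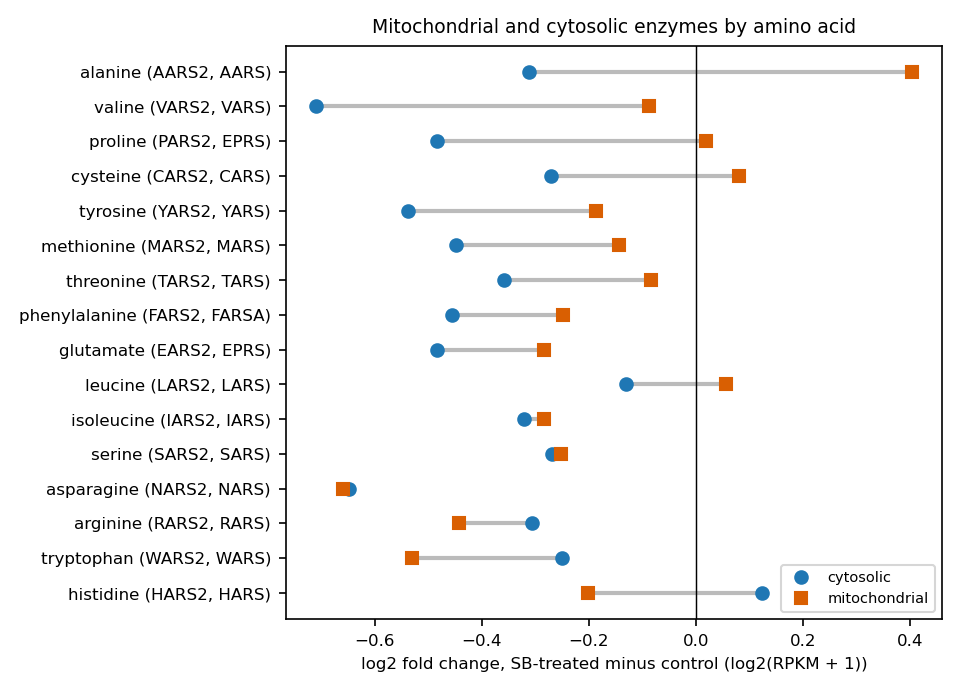
Log2 fold change (SB-treated minus control, on log2(RPKM + 1)) of the cytosolic (blue circle) and mitochondrial (orange square) enzyme for each of 16 amino acids, ordered by the difference. At the top, alanine spans from -0.31 (AARS) to 0.40 (AARS2). At the bottom, histidine runs the other way, and for serine and asparagine the markers nearly coincide.

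The 6 cytosolic genes with TGATGCAA in the promoter (CARS, MARS, AARS, NARS, TARS and IARS) all fell, with log2 fold changes from -0.65 to -0.27 and a median of -0.34. Of the 10 cytosolic genes whose promoter lacks TGATGNAA, 9 fell and 1 rose, with a median of -0.37, beside 32.6% of all genes lower and 33.0% higher. YARS2, the mitochondrial gene with a match, fell by 0.19 on the log2 scale. The difference between the groups was not tested.

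Genes of the ATF4 and amino acid response, of which many cytosolic synthetase genes are known members, did not move as 1 group. Of 25 genes on the list, 6 rose, 6 fell and 13 did not pass the test, beside 33.0% and 32.6% of all genes, and the median log2 fold change was -0.01. ATF4 itself had 255, 244, 257 and 242 RPKM in the controls and 297, 302, 305 and 306 RPKM after SB. It was higher in every SB-treated replicate (log2 fold change 0.28, SE 0.035, adjusted p = 8.51e-05, limma).

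The largest rises on the list were those of 2 transcription factors and a pseudokinase. ATF5 went from 3.12 ± 0.0624 to 5.87 ± 0.0371 RPKM (log2 fold change 0.74), ATF3 from 87.7 ± 3.05 to 126 ± 1.05 RPKM (0.52) and TRIB3, an inhibitor of AKT signalling, from 38.7 ± 4.21 to 53.9 ± 2.45 RPKM (0.47; SD, n = 4 each). The largest falls were those of DDIT4, an inhibitor of mTORC1, from 401 ± 19.1 to 219.9 ± 4.28 RPKM (-0.86), and of the serine pathway genes SHMT2, from 205 ± 16.5 to 131 ± 1.43 RPKM (-0.64), and PSAT1, from 322 ± 19.1 to 237 ± 2.44 RPKM (-0.44). PYCR1, a gene of proline synthesis named because its fall was nearly the same (-0.43), fell further than PSAT1 without control replicate 1 (-0.55 against -0.40).

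ASNS, asparagine synthetase and a standard ATF4 target, had 224, 226, 232 and 229.9 RPKM in the controls and 218, 215, 221 and 223 RPKM after SB. The SB-treated values were all lower by a small margin, and the log2 fold change of -0.06 (SE 0.031) did not pass the test (adjusted p = 0.141, limma). The call depended on the setting. ASNS passed as higher under the same-sum scaling (0.13, adjusted p = 0.00438, limma) and as lower without control replicate 1 (-0.06, adjusted p = 0.0433, limma), and its adjusted p ran up to 0.294 over the other alternatives. The list had 15 genes higher and 5 lower under the same-sum scaling, where 7441 and 2432 of all 14526 genes were. Without control replicate 1 it had 9 higher and 11 lower, where 5459 and 5511 of all genes were. In the SB-treated libraries most synthetase transcripts were lower. Of the list, ATF4, ATF3 and TRIB3 transcripts were higher in these libraries, and DDIT4, SHMT2 and PSAT1 transcripts were lower. A relation between the list and the synthetases was not tested.

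Other genes that make tRNA ready for translation fell or did not pass the test. Of 28 listed genes 27 had a row, of which 16 fell, 0 rose and 11 did not pass, beside 32.6% and 33.0% of all genes, with a median log2 fold change of -0.19 and with 4 genes above 0 in the deposited scaling. NSUN2, a tRNA cytosine methyltransferase, went from 47.3 ± 2.52 to 31.5 ± 0.263 RPKM (-0.57), TUFM, the mitochondrial elongation factor that carries charged tRNA, from 193 ± 2.97 to 131 ± 2.40 RPKM (-0.56) and TRMT1, a tRNA guanine methyltransferase, from 36.2 ± 3.70 to 25.1 ± 1.16 RPKM (-0.51; SD, n = 4 each). None of the 4 above 0 had an unadjusted p below 0.05 (limma), and voom also called 0 higher. Without control replicate 1, 19 fell and 1 rose. Under the same-sum scaling 7 of the 27 were higher and 5 were lower, where 7441 and 2432 of all 14526 genes were. The share of the list that was lower was then close to that of all genes. Under either scaling 23 lay below the median of all genes, a count that rescaling could hardly change.

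**Figure D5:**
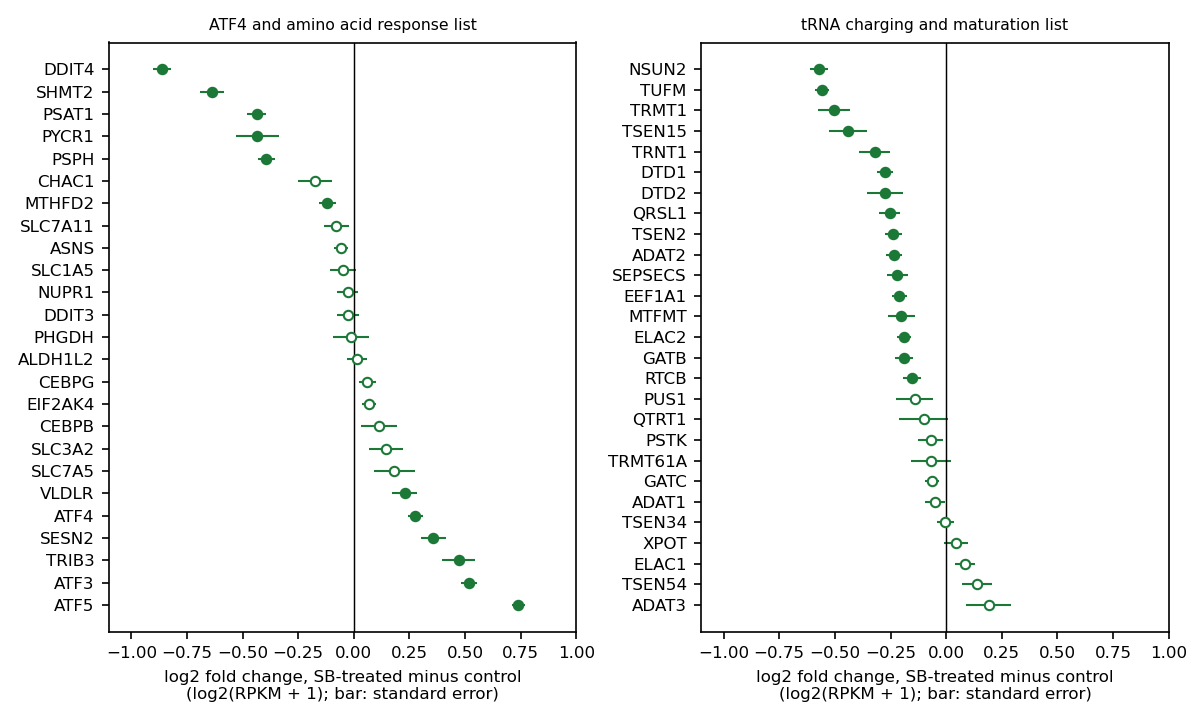
Log2 fold change (SB-treated minus control, on log2(RPKM + 1)) with its limma standard error for the ATF4 and amino acid response list (left) and the list of tRNA charging and maturation genes (right). Filled points passed the adjusted p threshold of 0.05. The left list spreads from -0.86 (DDIT4) to 0.74 (ATF5), and on the right all filled points lie below 0.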

How the data were processed

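RNA libraries of 4 control and 4 SB-treated samples (10 mM, 24 h) were sequenced. According to the labels and methods, the authors mapped reads to hg38 with TopHat2 2.1.0, counted them per gene with featureCounts 1.5.0, dropped genes that did not exceed 1 CPM in 2 or more samples and scaled libraries with TMM in edgeR 3.16.5. The deposited values are RPKM. The authors' own columns of log2 fold change, mean log2 CPM, p-value and FDR were not used. The annotation release and the strand setting of the counting are not given in the sources used here.

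Whole reads were recovered for 100% of genes (tolerance 0.02 reads), using 169 genes whose annotated span gave the library size. They served for depth and for voom. The scaling factors implied were 0.957 to 0.969 in controls and 1.03 to 1.04 in SB-treated samples. RPKM were tested with limma 3.58.1 in R 4.3.3 (lmFit and eBayes on log2(RPKM + 1), no block, all 14526 genes). Ratios of transcripts were tested with exact permutation in Python 3.11.15 with numpy 2.4.6. The scripts were tested on simulated data. Gene positions came from GENCODE 44 and promoters from RefSeq.

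Members and lists were chosen with earlier results of these data known. The 6 cytosolic and 6 mitochondrial members with the largest called changes, AIMP1, AIMP2, EEF1E1, GARS, KARS, EPRS and TARSL2 are given per sample, as are partners in a described ratio, and of each context list the 3 largest changes in each direction, with ATF4 and ASNS. One mitochondrial member that the rule names is counted but not reported here singly. HARS and CARS2 were added after their values were seen. Alternatives were a pseudocount of 0.1, a mean of at least 1 RPKM, 2 other scalings, a replicate block, voom, and leaving out each library.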

Additional observations from a re-analysis of the deposited data

Results flagged for a closer look

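Each group of 4 replicates was examined for 40 members by the gap between an extreme sample and its nearest neighbour as a share of the range, set against the 95% limit of Dixon's test. Of 80 groups, 11 had such a far sample, where about 4 would be expected by chance at 1 in 20. Control replicate 1 was that sample in 9. It was the lowest control for VARS (0.941), PARS2 (0.916), VARS2 (0.889), MARS (0.879) and FARSA (0.837), and the highest control for FARSB (0.948), GARS (0.874), NARS2 (0.859) and TARS (0.843). Members of the same library thus deviated in both directions. The others were SB-treated replicate 1, the highest for AIMP1 (0.910) and control replicate 4, the highest for IARS (0.873). Without control replicate 1, the called members kept their direction, TARS2 (-0.13) and VARS2 (-0.18) were lower and passed the test, and PARS2 changed sign without passing it.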

How the results depend on the processing

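Under a pseudocount of 0.1, a mean of at least 1 RPKM, median-of-ratios scaling and voom on the recovered reads, between 39 and 40 of the 41 members kept their direction and side of the threshold, and mitochondrial synthetases higher came to 1 in each, since CARS2 no longer passed. Scaling to the same RPKM sum changed most. It gave 4 mitochondrial members higher and 6 lower, 1 scaffold protein lower, 7 tRNA genes higher and 5 lower, and 15 ATF4 list genes higher. Of all 14526 genes, 7441 were higher and 2432 lower there. Signs reversed there for TARS2 (0.0966), TARSL2 (0.0643), MARS2 (0.0266), QARS (0.0512), LARS (0.0545), VARS2 (0.0586) and ASNS (0.130). With this scaling the median log2 ratio of all genes was 0.19, against 0.01 in the deposited scaling and 0.0036 with median-of-ratios scaling. Which scaling is nearer to the RNA amounts was not tested. The samples were not paired by replicate number in the main fit. Same-numbered deviations from the group means correlated at 0.38, 0.33, 0.17 and -0.16, and whether the numbers mark pairs was not tested. When the replicate number entered the fit as a block, 1 mitochondrial member and 2 tRNA genes were higher, against 2 and 0 without it. The other counts stayed within 1.5 times. Leaving out 1 library gave 0 to 1 cytosolic members higher (0 without SB-treated replicate 4) and 18 to 19 lower, 1 to 2 mitochondrial members higher and 10 to 13 lower, 3 scaffold proteins lower, and 0 to 1 tRNA genes higher. For the ATF4 list it gave 5 to 11 lower, 11 without control replicate 1. PARS2 ran from -0.0613 (without control replicate 1) to 0.0508. Ratios that did not overlap numbered 9 to 10 higher and 2 to 3 lower; with 3 against 4 the exact test cannot go below 0.0571. The effects of depth and of the number of samples were not tested.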
